A study of Drosophila melanogaster with 6 samples.

Results

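Described here are 10 genes, 8 with higher and 2 with lower transcript levels in the same 3 of 6 fly head libraries, out of 15886 rows in the table. The values that chose them were their FPKM (fragments per gene length and library size) in all 6 libraries: each differed between RNAi-GLAD 1, RNAi-GLAD 2 and RNAi-Ctrl 3 on one side and RNAi-Ctrl 1, RNAi-Ctrl 2 and RNAi-GLAD 3 on the other. That split, and every value within it, is therefore a description and carries no test. The rule asks for a difference of several fold. For 8 of the 10 genes the nearest values on either side were at least 4.16-fold apart, and for 2 genes they were not, at 1.78-fold for CG13965 and 1.49-fold for cer.

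The libraries came from adult Drosophila melanogaster. All flies carried TubGS, a GeneSwitch driver under a tubulin promoter that acts throughout the body once the drug RU486 is fed, and RU486 was given in the food of the flies of each group. In the RNAi-GLAD group (TubGS>RNAi-GLAD) the driver expressed an RNA interference construct named GLAD, and in the RNAi-Ctrl group (TubGS>RNAi-GFP) a construct against GFP, a jellyfish protein that flies lack. Tissue was taken on day 7 after induction, with 3 libraries per group. The labels name the tissue a head, while the extraction protocol speaks of 100 pooled brains. The labels give neither sex nor age at induction, nor whether the libraries of a group came from separate crosses, so the p-values cover the spread among these libraries alone, and that spread may be technical. The gene targeted by GLAD is not named in the labels and could not be used to check them.

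By family, 3 of the 10 genes belong to secreted enzymes. CG8299 and CG5246 encode trypsin-like serine proteases, enzymes made as inactive precursors and cut to become active, which insects use in digestion, clotting and immune cascades. CG4757 encodes a carboxylesterase, of the family that splits ester bonds in lipids, hormones and foreign compounds. Next to them stands an inhibitor: cer (crammer) is a small protein that resembles the propeptide of cathepsins, inhibits cysteine proteases of that type and is known in flies for its role in long-term memory. Mec2 encodes a stomatin-domain membrane protein related to podocin of the vertebrate kidney filter and to MEC-2 of the nematode touch receptor. In flies it belongs to the slit diaphragm of nephrocytes, the cells that filter the blood. The remaining genes, Srg3, CG2444, CG13965, CG8157 and CG15368, are given here by symbol and values, with no role.

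**Figure D1:**
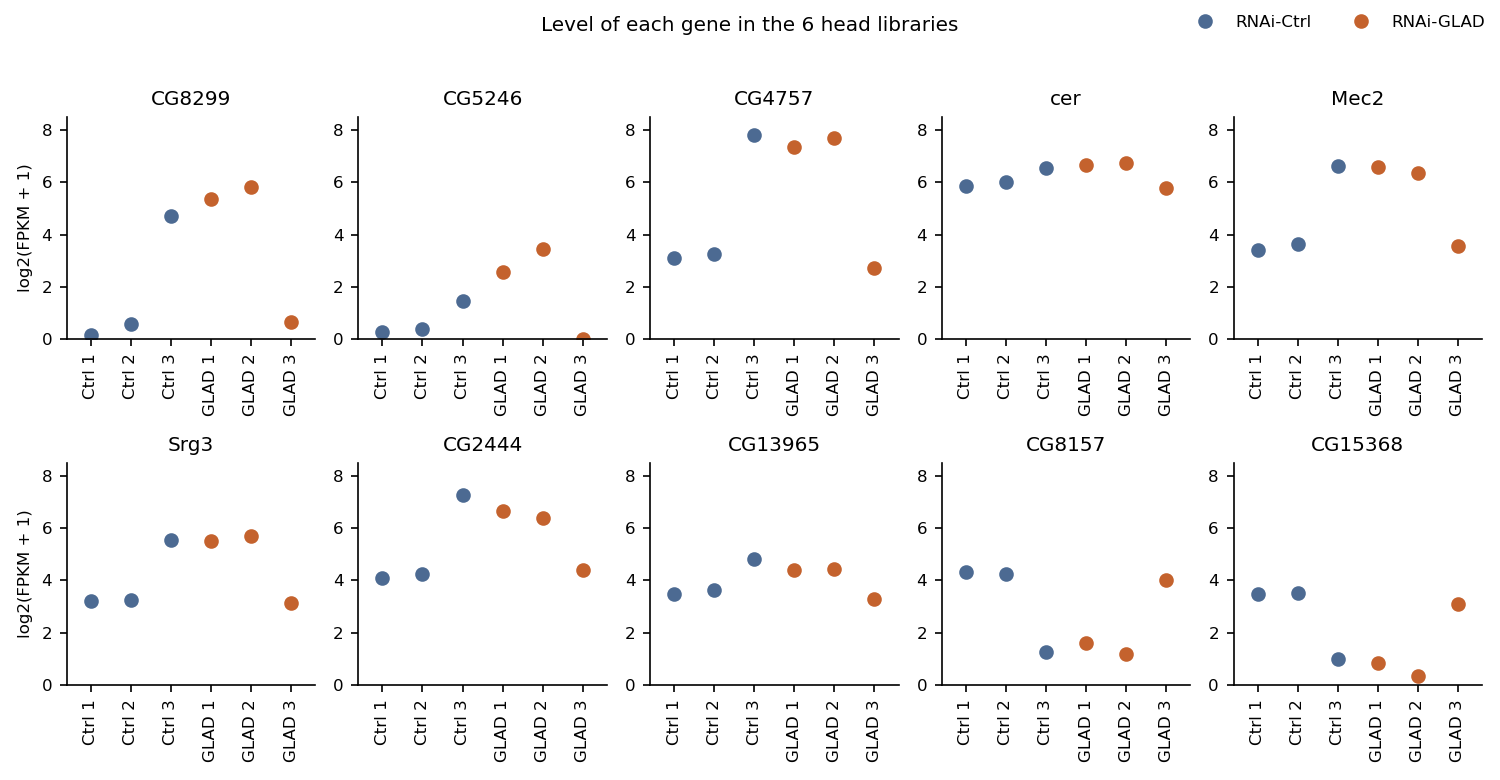
Level of each of the 10 genes as log2(FPKM + 1) (vertical axis) in each library (horizontal axis), 1 point per library, RNAi-Ctrl in blue and RNAi-GLAD in orange. In the first 8 panels RNAi-Ctrl 3 sits with RNAi-GLAD 1 and 2 on the high side and RNAi-GLAD 3 with RNAi-Ctrl 1 and 2 on the low side, and in the panels of CG8157 and CG15368 the sides are exchanged.

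The libraries numbered 3 stood apart from the groups they are labelled with across the table. The labels were kept as given. Whether those of RNAi-Ctrl 3 and RNAi-GLAD 3 were exchanged was not tested, and an exchange would change what the labelled differences and the 0 calls mean. Of 9631 genes tested (mean FPKM 1 or more), values did not overlap between the labelled groups for 385, or 4%. Between the split on which the members were chosen they did not overlap for 35.5%, with 20.5% higher and 15.1% lower in RNAi-GLAD 1, RNAi-GLAD 2 and RNAi-Ctrl 3. The totals implied by the low values were 22.1 to 29.5 M fragments per library. A single fragment was then worth 0.0169 to 0.0227 FPKM in a gene of 2000 bp.

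As labelled, the 10 genes had wide spreads within RNAi-GLAD and RNAi-Ctrl and none passed the test. Limma on log2(FPKM + 1) called 0 of 9631 genes (0%) at an adjusted p under 0.05, with 112 at an unadjusted p under 0.05, and no member was among either. The rule itself placed 1 library of each labelled group with the other group, which sets an overlap of the labelled groups and a wide spread within them, so the members' labelled values are given as a description. Each member's adjusted p was 0.999, and their unadjusted p ranged from 0.197 to 0.901. CG8299 had the largest estimate of the 10, with RNAi-Ctrl at 8.66 ± 14.5 and RNAi-GLAD at 32.3 ± 28.6 FPKM (mean ± SD over 3 libraries each). Its log2 fold change was 2.14, with a 95% interval from -2.26 to 6.55. CG4757 followed a like pattern, at 79.8 ± 124 and 126 ± 107 FPKM (mean ± SD, n = 3) and with a log2 fold change of 1.21 (95% interval -3.24 to 5.66). For these genes the standard deviation within a group was close to the group mean or above it. The interval was narrowest for cer, at a log2 fold change of 0.25 (95% interval -0.51 to 1.01). On the negative side stood CG15368 (-1.23, 95% interval -3.62 to 1.16) and CG8157 (-1.02, 95% interval -3.71 to 1.68).

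Without the libraries numbered 3, the log2 difference between RNAi-GLAD 1 and 2 and RNAi-Ctrl 1 and 2 was 5.25 for CG8299, 4.36 for CG4757, 2.97 for Mec2, 2.69 for CG5246, 2.38 for Srg3, 2.37 for CG2444, 0.86 for CG13965 and 0.77 for cer. It was -2.91 for CG8157 and -2.90 for CG15368. Limma called 5.45% of genes in those 4 libraries, all 10 members included. Since the members were chosen on the same values, nothing is read from that count. Between RNAi-GLAD 3 and RNAi-Ctrl 3 alone the sign was the opposite for each of the 10, from -5.08 for CG4757 to 2.77 for CG8157. That opposite sign is what the rule selected and is no finding.

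**Figure D2:**
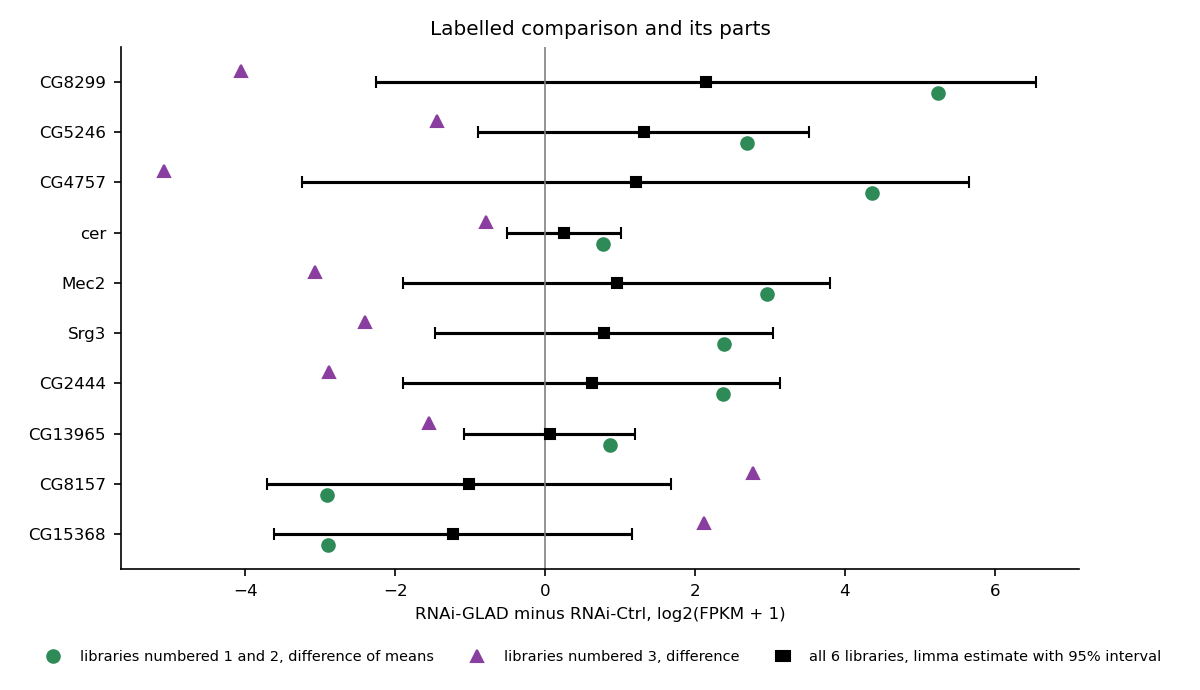
Difference RNAi-GLAD minus RNAi-Ctrl in log2(FPKM + 1) (horizontal axis) for each gene (vertical axis). Black squares are limma estimates from all 6 libraries with their 95% interval, green circles the libraries numbered 1 and 2, purple triangles those numbered 3. All 10 black intervals include 0, and circle and triangle lie on opposite sides of 0 for each gene.

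CG8299 (FBgn0034052, 2R, 15940610 to 15941483, minus strand, BDGP6) showed the widest gap of the group. This trypsin-like protease was at 25.4, 40.1 and 56.1 FPKM in RNAi-Ctrl 3, then in RNAi-GLAD 1 and 2. It was at 0.103, 0.481 and 0.579 FPKM in RNAi-Ctrl 1, in RNAi-Ctrl 2 and in RNAi-GLAD 3. The transcript was thus plainly present in 3 libraries and under 1 FPKM in the other 3, with the nearest values 43.9-fold apart. The low values rest on 2, 9 and 10 fragments and the high ones on 587, 734 and 990, if a gene length of 783 bp is used, which makes the low values whole numbers. The count of 2 fragments has an exact Poisson interval of 0.242 to 7.22, which, like the other intervals and limits on fragments here, covers counting error only.

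CG5246 (FBgn0038484, 3R, 17136111 to 17137195, plus strand), the other trypsin-like protease, had a lower level than CG8299 in every library except RNAi-Ctrl 1. It was at 9.90 FPKM in RNAi-GLAD 2, 4.93 FPKM in RNAi-GLAD 1 and 1.72 FPKM in RNAi-Ctrl 3. In RNAi-Ctrl 1 and 2 it was at 0.185 and 0.309 FPKM, and it was listed at 0 in RNAi-GLAD 3. These values correspond to 242, 125 and 55 fragments against 5, 8 and 0. As a one-sided 95% limit, a count of 0 allows up to 3 fragments, or 0.125 FPKM, and the exact two-sided Poisson interval used for the other counts ends at 3.69 fragments. Together with CG8299 it shared the order of RNAi-GLAD 2, RNAi-GLAD 1 and RNAi-Ctrl 3 from high to low, with gaps of 2.21-fold between the ends of that order for CG8299 and 5.76-fold for CG5246. The library labelled RNAi-Ctrl 3 was at 0.528 times the mean of RNAi-GLAD 1 and 2 for CG8299 and at 0.232 times for CG5246. Since the tissue is a mixture, more cells of a type and more RNA per cell cannot be told apart for these or any of the other genes.

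Digestive enzymes of the midgut did not share 1 pattern. Of 13 midgut markers (10 tested), the amylases Amy-p and Amy-d lay higher without overlap on the same side as the proteases, and the other 11 overlapped. Over all tested genes 20.5% were higher without overlap on that side, so the 2 amylases are no more than that share. Amy-p was at 137, 128 and 149 FPKM in RNAi-Ctrl 3, then in RNAi-GLAD 1 and 2, against 64.0, 70.6 and 46.3 FPKM in the other libraries. Amy-d was at 70.1, 60.7 and 75.8 FPKM against 30.4, 41.6 and 33.3 FPKM, and both amylases were highest in RNAi-GLAD 2, as CG8299 and CG5246 were. The digestive trypsin alphaTry was instead at 140 FPKM in RNAi-GLAD 1 and at 0.0516 FPKM in RNAi-GLAD 2. The summed level of the 13 markers, none of them at 0 in every library, was 505 FPKM in RNAi-GLAD 1, 108 FPKM in RNAi-GLAD 3 and 217 to 246 FPKM in the other 4 libraries. The part of midgut tissue in the values of these proteases was not tested.

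CG4757 (FBgn0027584, 3R, 11161207 to 11163498, plus strand), the carboxylesterase, reached the highest level of the 10 genes per length. It was at 223, 163 and 209 FPKM in RNAi-Ctrl 3, then in RNAi-GLAD 1 and 2, and at 7.55, 8.56 and 5.62 FPKM in RNAi-Ctrl 1, in RNAi-Ctrl 2 and in RNAi-GLAD 3. Its high values lay within 1.37-fold of each other and its low values within 1.52-fold, while the gap between them was 19.1-fold. At the annotated exon length of 2098 bp the lowest value stood for about 260 fragments and the highest for about 13823, so that counting error is small beside these differences.

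The inhibitor cer (FBgn0034443, 2R, 19396215 to 19396772, minus strand) had a high level in every library and the smallest shift. It was at 93.8, 100.2 and 105 FPKM in RNAi-Ctrl 3, then in RNAi-GLAD 1 and 2. Its values in RNAi-Ctrl 1 and 2 and in RNAi-GLAD 3 were 56.6, 63.1 and 53.9 FPKM. The sides did not overlap, but among the 1973 genes higher without overlap on the same side cer came 171st by the gap between nearest values, and CG13965 came 94th. A gap of at least 2-fold was found for 0.737% of all tested genes on the higher side and 0.249% on the lower side, and for 8 of the 10 members.

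Mec2 (FBgn0030993, X, 19188035 to 19190193, plus strand), the stomatin-domain protein, was at 97.5, 96.5 and 81.6 FPKM in RNAi-Ctrl 3, then in RNAi-GLAD 1 and 2. It was at 9.58, 11.5 and 10.8 FPKM in RNAi-Ctrl 1, in RNAi-Ctrl 2 and in RNAi-GLAD 3. Its level took nearly the same value on each side, within 1.20-fold, with 7.12-fold between them. Srg3 (FBgn0053926, 3L, 9443232 to 9446388, plus strand) was as even, at 45.9, 44.8 and 51.1 FPKM against 8.32, 8.44 and 7.88 FPKM in the same order of libraries. The gap between its nearest values was 5.30-fold, and the spread within a side 1.14-fold and 1.07-fold.

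CG2444 (FBgn0030326, X, 11704310 to 11705300, minus strand) was highest in the library labelled RNAi-Ctrl 3, at 154 FPKM, and was at 101 and 83.4 FPKM in RNAi-GLAD 1 and 2. It was at 16.2, 17.8 and 20.0 FPKM in RNAi-Ctrl 1, in RNAi-Ctrl 2 and in RNAi-GLAD 3, so the gap was 4.16-fold. CG13965 (FBgn0032834, 2L, 19961758 to 19962352, minus strand) was also highest in that library, at 27.3 FPKM in RNAi-Ctrl 3 and 20.2 and 20.5 FPKM in RNAi-GLAD 1 and 2. Its other values were 10.1, 11.3 and 8.72 FPKM. For both genes RNAi-Ctrl 3 stood above RNAi-GLAD 1 and 2, by 1.67 and 1.35 times their mean. This is the reverse of what the proteases showed.

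The lower genes were CG8157 (FBgn0034010, 2R, 15325503 to 15326386, minus strand) and CG15368 (FBgn0030104, X, 9215785 to 9216540, plus strand). The level of CG8157 was 19.0, 18.2 and 15.2 FPKM in RNAi-Ctrl 1, in RNAi-Ctrl 2 and in RNAi-GLAD 3, and at 1.38, 2.01 and 1.27 FPKM in RNAi-Ctrl 3, then in RNAi-GLAD 1 and 2. That of CG15368 was 10.2, 10.4 and 7.60 FPKM in the same libraries as the high values of CG8157 and at 0.970, 0.788 and 0.272 FPKM in the other 3. Both transcripts were several-fold lower on one side, by 7.59-fold and 7.84-fold between nearest values, but not absent. CG8157 had 14, 20 and 23 fragments in its lowest libraries and CG15368 3, 9 and 14, at lengths that make these values whole (491 and 489 bp). Those lengths were searched for and may be wrong. At the annotated exon lengths of 824 and 756 bp the numbers were 23, 34 and 39 for CG8157 and 5, 14 and 22 for CG15368. At 489 bp, the 3 fragments of CG15368 in RNAi-GLAD 2 have an exact Poisson interval of 0.619 to 8.77. It overlaps that of the 9 fragments in RNAi-GLAD 1 (4.12 to 17.1).

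**Figure D3:**
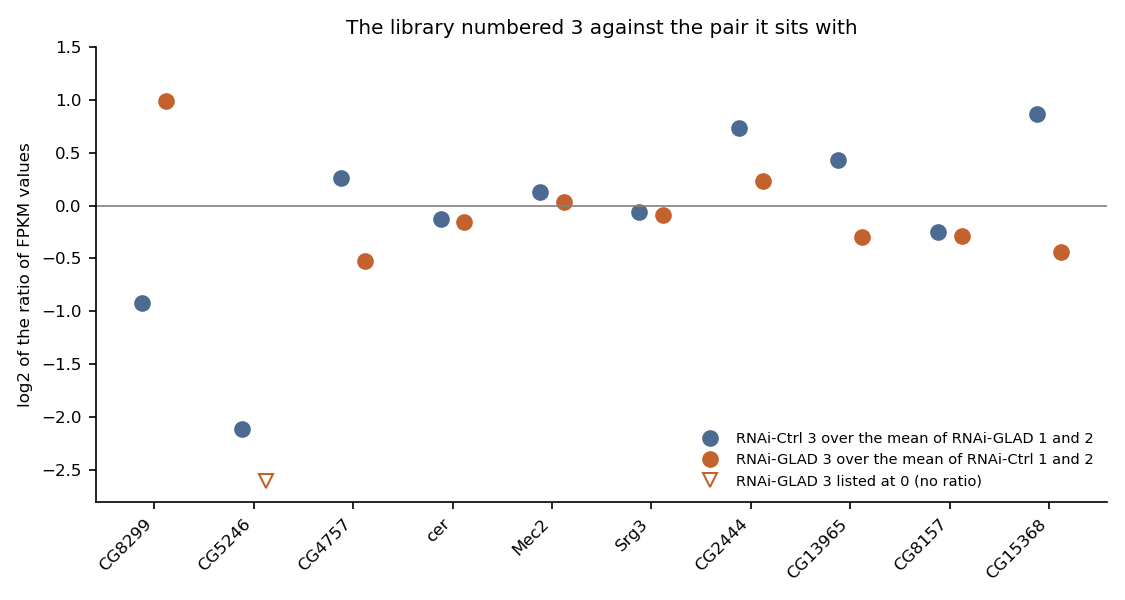
Log2 of the ratio of FPKM values (vertical axis) for each gene (horizontal axis): RNAi-Ctrl 3 over the mean of RNAi-GLAD 1 and 2 in blue, and RNAi-GLAD 3 over the mean of RNAi-Ctrl 1 and 2 in orange. Points near 0 (cer, Mec2, Srg3) mark genes whose library numbered 3 matched that pair in level, while CG8299 and CG5246 lie below it in RNAi-Ctrl 3 and CG15368, CG2444 and CG13965 above; the open triangle marks CG5246, listed at 0 in RNAi-GLAD 3.

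The level in a library numbered 3 did not equal that of the pair it sat with for every gene. RNAi-Ctrl 3 was at 0.232 to 1.83 times the mean of RNAi-GLAD 1 and 2 over the 10 genes. RNAi-GLAD 3 was at 0.697 to 1.98 times the mean of RNAi-Ctrl 1 and 2 over the 9 genes not listed at 0 there. The ratio of 1.98 belongs to CG8299, at 10 fragments in RNAi-GLAD 3. Of the 8 higher genes, 4 were highest in RNAi-GLAD 2 (CG8299, CG5246, cer and Srg3) and 4 in RNAi-Ctrl 3 (CG4757, Mec2, CG2444 and CG13965). The library RNAi-GLAD 1 was the highest for none.

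By structure, most of the 10 are small genes. Their median exon length was 849 bp, against 2065 bp over the 8939 protein-coding genes tested, and the median predicted protein 183.5 residues against 449. The proteins ran from 79 residues for cer to 550 for CG4757, with 260 for CG8299 and 272 for CG5246. In 8 of the 10 genes the exons formed at most 2 blocks, where 27.7% of protein-coding genes tested did. CG8299, CG5246 and CG15368 were single-exon genes. They lay apart from each other: 3 on the X chromosome (30%, against 16.4% of protein-coding genes tested), 3 on 2R, 2 on 3R and 1 each on 2L and 3L. These shares describe 10 chosen genes and carry no test.

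The genes beside them mostly did not share the size of the shift. Of 20 nearest neighbours, 1 on each side of each gene, 14 had a mean FPKM of at least 1, and 9 of these did not overlap between the sides on which the members were chosen, 7 of them in the direction of the member. The background is 35.5% for either direction. Their gaps were small, with 0 of 14 reaching 2-fold. The largest was that of Obp8a, an odorant-binding protein gene 86 bp from CG15368 on the same strand. Obp8a was at 16.8, 16.2 and 15.9 FPKM in RNAi-Ctrl 1, in RNAi-Ctrl 2 and in RNAi-GLAD 3 and at 8.12, 8.34 and 6.88 FPKM in the other libraries, 1.91-fold between nearest values. On the other side of CG15368, 332 bp away, CG15369 was at 0.810 to 2.57 FPKM, with its sides 1.02-fold apart.

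CG16772, 327 bp from CG13965 on the opposite strand, moved the same way as that gene. It was at 297, 287 and 265 FPKM in RNAi-Ctrl 3, then in RNAi-GLAD 1 and 2 and at 198, 174 and 157 FPKM in RNAi-Ctrl 1, in RNAi-Ctrl 2 and in RNAi-GLAD 3, with a gap of 1.34-fold. Beside CG8299, the cytochrome P450 gene Cyp4aa1 was at 20.2, 27.1 and 23.2 FPKM against 16.5, 13.5 and 13.9 FPKM. The neighbours of cer were close to level: SdhA, a subunit of mitochondrial succinate dehydrogenase, was at 157 to 186 FPKM and hts, the adducin of the cell cortex, at 58.1 to 63.9 FPKM. CG5246 lies between other trypsin-like genes, of which CG31267 (0 to 1.14 FPKM) and CG5255 (0 to 0.0376 FPKM) stayed low in all 6 libraries. The neighbours of Mec2, CG33253 and HP1D3csd, were at 0.0232 to 0.495 and 0.359 to 1.36 FPKM. CG2444 overlaps PhKgamma, a phosphorylase kinase subunit gene on the opposite strand, which was at 53.6 to 60.6 FPKM. The sources used here do not give whether reads there were counted by strand.

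**Figure D4:**
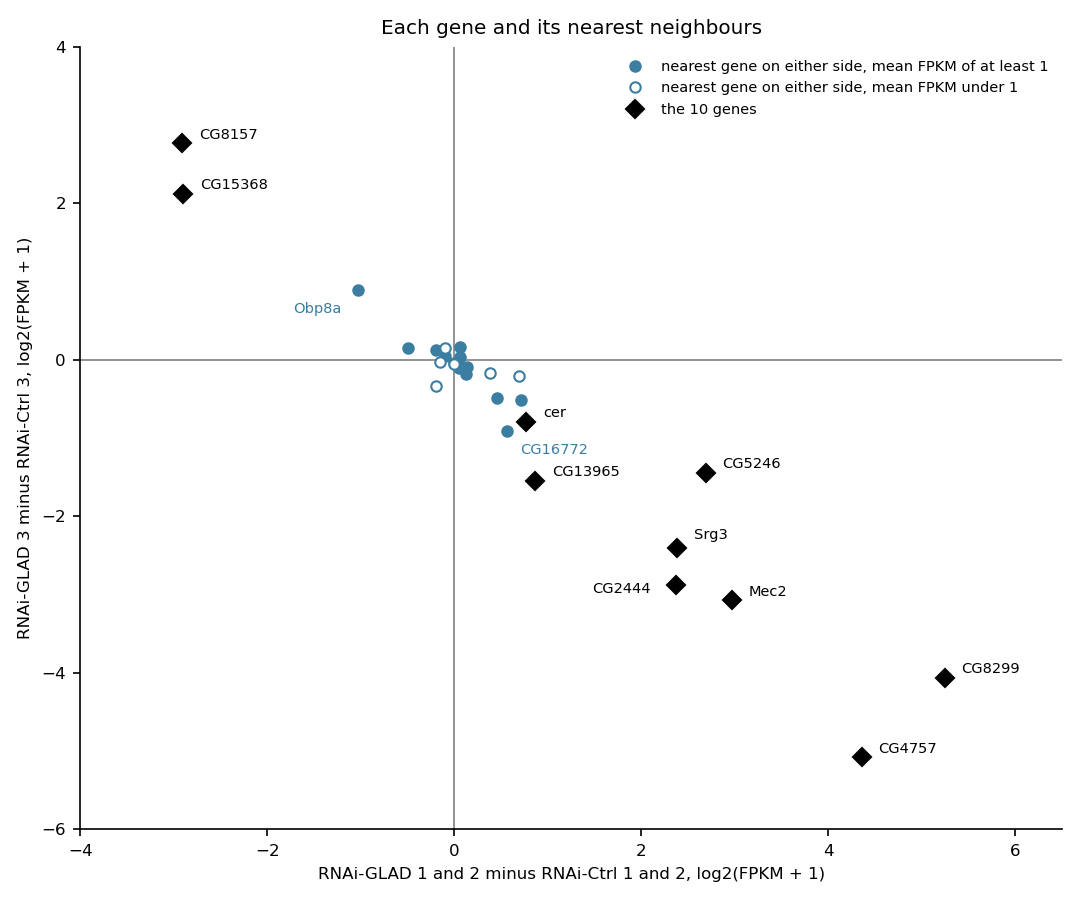
Difference RNAi-GLAD minus RNAi-Ctrl in log2(FPKM + 1), in the libraries numbered 1 and 2 (horizontal axis) and in those numbered 3 (vertical axis), for the 10 genes (black diamonds) and the nearest gene on either side of each (blue circles, open where the mean FPKM is under 1). The 10 genes lie in the upper left and lower right of the plot, and most neighbours lie close to 0 on each axis, with Obp8a and CG16772 the farthest out.

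The genes whose pattern was most like a member's are given by Pearson's r over the 6 libraries on log2(FPKM + 1), as a description with no p. All points share the same 6 libraries, and the 2 most alike named genes of each member reached an r of 0.995 or more. They were picked as the highest of all named genes tested, of which many share the split. Over all tested genes 35.5% did not overlap between the sides, so no particular likeness is read from a high r. Obp8a, the neighbour of CG15368, was also the gene most like it (r = 0.996). For CG4757 they were Rdh1, a retinol dehydrogenase gene, and TotA, a stress-induced secreted peptide of the Turandot family. TotA was at 659, 608 and 601 FPKM in RNAi-Ctrl 3, then in RNAi-GLAD 1 and 2 and at 287, 290 and 262 FPKM in RNAi-Ctrl 1, in RNAi-Ctrl 2 and in RNAi-GLAD 3. The pattern of cer was nearest to those of Arpc3B, a subunit gene of the actin-nucleating Arp2/3 complex, and CG16926. CG16926 was at 501, 641 and 647 FPKM against 157, 215 and 150 FPKM, a larger gap than that of cer itself.

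For Mec2 the most alike genes were CG7149 and the sugar transporter gene sut2, and for Srg3 sut2 and CG11857. CG8299 was followed most closely by CG7970 and I-2, an inhibitor of protein phosphatase 1, and CG5246 by CG5262 and Dronc, the initiator caspase gene. CG2444 was nearest to La, an RNA-binding protein gene, and CSN6, a subunit of the COP9 signalosome. CG13965 was nearest to CG12056 and Nup160, a nuclear pore gene. For CG8157 they were the cell polarity gene sdt and CG30419, and for CG15368, after Obp8a, CG5961. Most of these genes moved by much less than the members: Dronc, for example, was at 5.08, 5.82 and 6.21 FPKM against 4.39, 4.38 and 4.18 FPKM.

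Relatives of the members were examined as lists, in the labelled fit and by overlap between the sides. Of 37 tested secreted serine proteases (75 in the table) 0 were called as labelled (background 0%), with 11 positive and 26 negative log2 fold changes and a median of -0.09, against 0.01 over all genes. Between the sides 3 were higher and 2 lower without overlap, and 32 overlapped, where 20.5% of all tested genes were higher and 15.1% lower. The farthest was alphaTry, which did not follow the sides. Those that did were teq, the protease Tequila, at 60.7, 55.6 and 60.9 FPKM in RNAi-Ctrl 3, then in RNAi-GLAD 1 and 2 and 142, 137 and 130 FPKM in the other libraries, and CG11529 on the lower side. On the higher side they were the immune cascade proteases Hayan and grass, and CG13318. Nearest values were 2.14-fold apart for teq and 1.26-fold for Hayan. They were barely apart for CG11529 (1.03-fold), grass (1.04-fold) and CG13318 (1.07-fold). Hayan was at 33.6, 29.8 and 34.6 FPKM against 23.7, 21.5 and 20.5 FPKM.

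Of 26 tested relatives of the carboxylesterase CG4757 (32 in the table) 0 were called as labelled, 16 positive and 10 negative, with a median of 0.02. Between the sides 4 of the 26 were higher and 7 lower, against 20.5% and 15.1% of all tested genes. The farthest was Est-Q, at 45.8, 47.7 and 50.0 FPKM in RNAi-Ctrl 1, in RNAi-Ctrl 2 and in RNAi-GLAD 3 and 23.2, 21.8 and 23.6 FPKM in RNAi-Ctrl 3, then in RNAi-GLAD 1 and 2. It lay opposite in direction to CG4757. Of 12 tested cathepsins and their inhibitors (16 in the table) 0 were called as labelled, 8 positive and 4 negative, with a median of 0.05. Between the sides 5 of the 12 were higher and 3 lower, against the same 20.5% and 15.1%. CtsL3 was the farthest, at 12.8, 10.3 and 12.8 FPKM against 5.44, 6.99 and 5.05 FPKM. CtsL1, the main lysosomal cathepsin L gene, was at 398, 432 and 453 FPKM against 346, 352 and 368 FPKM. Its nearest values were 1.08-fold apart. The 3 lower genes were CtsK2, CG31313 and CG15369, and CtsB, CtsF, CtsK1 and Swim overlapped.

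Of 10 tested stomatin and slit diaphragm genes besides Mec2 (16 of 17 names in the table) 0 were called as labelled, 4 positive and 6 negative, with a median of -0.01. Between the sides 0 of the 10 were higher and 4 lower (20.5% and 15.1% of all tested genes). The farthest, Amnionless, a receptor gene of nephrocyte uptake, was at 1.99, 1.99 and 1.81 FPKM against 2.45, 2.18 and 2.69 FPKM. The summed level of 4 nephrocyte markers, with Klf15 at 0 in every library, was 13.6 to 15.7 FPKM in RNAi-Ctrl and 13.7 to 15.4 FPKM in RNAi-GLAD. Of 24 tested immune effectors of the Toll and Imd pathways (28 of 31 names in the table) 0 were called as labelled, 4 positive and 20 negative, with a median of -0.23. Between the sides 9 of the 24 were higher and 0 lower, beside 20.5% and 15.1% of all tested genes. The farthest was AttA, an attacin, at 187, 109 and 271 FPKM in RNAi-Ctrl 3, then in RNAi-GLAD 1 and 2 and 8.46, 55.1 and 16.5 FPKM in RNAi-Ctrl 1, in RNAi-Ctrl 2 and in RNAi-GLAD 3. The attacins AttB, AttC and AttD overlapped, as did DptA, DptB, Dro, CecA1, CecA2 and CecC. AttB was at 71.2, 57.3 and 101 FPKM against 99.0, 74.1 and 28.5 FPKM in the same order of libraries. Besides AttA, the higher genes were Bomanin, Daisho and Baramicin peptides, and other Bomanins overlapped. Dso1, a secreted Daisho peptide, was at 5303, 3357 and 3832 FPKM against 2158, 2926 and 2336 FPKM.

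Markers of the labelled tissue were present in every library. The summed levels were 761 to 833 FPKM for 5 neuronal markers, 949 to 1059 FPKM for 5 glial markers and 40394 to 41830 FPKM for 5 photoreceptor markers. Other cell types were present too and differed between libraries. Markers of testis and male accessory gland (11 of 11 in the table) summed to 3.49, 41.0 and 53.8 FPKM in RNAi-Ctrl 1, 2 and 3 and to 80.9, 1.20 and 4.63 FPKM in RNAi-GLAD 1, 2 and 3. Fat body markers summed to 756 to 1337 FPKM in RNAi-Ctrl and 706 to 926 FPKM in RNAi-GLAD, and hemocyte markers to 205 to 227 and 193 to 231 FPKM. Of 7 tested fat body markers 1 was higher and 3 lower without overlap between the sides (20.5% and 15.1% of all tested genes). The higher one, fit, was at 33.0 to 97.4 FPKM in RNAi-Ctrl 3 and RNAi-GLAD 1 and 2. It was at 7.49 to 16.3 FPKM in the other libraries. The lower ones were Yp1, Yp2 and Yp3, at 296, 98.6 and 343 FPKM in RNAi-Ctrl 1. Elsewhere Yp1 was at 3.28 FPKM or lower, Yp2 at 2.25 FPKM or lower and Yp3 at 53.5 to 61.2 FPKM. Muscle markers summed to 435 to 473 FPKM in RNAi-Ctrl and 423 to 522 FPKM in RNAi-GLAD. The 8 genes entered as ovary markers, with Vm26Aa at 0, summed to 13.8 to 14.5 and 14.0 to 16.0 FPKM. Most of that sum was Nos (10.7 to 12.7 FPKM), a different gene that was matched in place of nos. Each other gene of that list was at 2.51 FPKM or lower in every library, so no ovary level is read from the sum. Single markers of fat body and of other lists did not overlap between the sides. Of these summed levels only that of glia lay without overlap between the sides. It was at 949, 952 and 1010 FPKM in RNAi-Ctrl 3, then in RNAi-GLAD 1 and 2. In the other libraries it was at 1013 to 1059 FPKM. Most of that sum was Gs2, the 1 of 5 glial markers without overlap, where 15.1% of all tested genes were lower. Gs2 was at 701, 689 and 746 FPKM against 779, 772 and 768 FPKM. The other glial markers overlapped, with alrm at 82.1, 74.4 and 91.4 FPKM against 78.3, 69.8 and 68.9 FPKM. The part of any of these cell types in the members' values was not tested.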

How the data were processed

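The deposited values are FPKM, 1 column per library, which the authors made from 150 bp paired-end reads. TopHat, BDGP6 and dm6 appear in the submitters' processing notes. How fragments were counted, by which annotation and strand setting, is not stated there. Of 15682 FlyBase IDs, 15002 were found in Ensembl release 115 (BDGP6). A further 204 rows lie outside the reference.

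Library totals were read from low values: FPKM times exon length was whole within 0.02 fragments for 55.7% to 56.5% of values up to 30 fragments, where chance gives 4%. Lengths are thus inexact for many genes, and fragment numbers are approximate. No count test was run.

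The 9631 genes whose mean FPKM was 1 or more (all 10 members, of which CG8299 and CG5246 pass through their high libraries and CG15368 is under 1 in 3 libraries) were tested as log2(FPKM + 1) with limma 3.58.1 (lmFit, eBayes with trend) in R 4.3.3, two-sided, with Benjamini-Hochberg adjustment over all genes at 0.05. The log2(FPKM + 1) scale understates changes of low genes. The script was tested on simulated data with independent noise and changes that followed the labelled groups. That simulation held no library that sits with the other group, so nothing about the number of genes called here is read from it. Alternatives changed the pseudocount, filter, scaling, trend, threshold, replicate block and libraries used. Same-numbered libraries are not stated to be paired.

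The members, lists, tests and alternatives were chosen with earlier results of these data known. Named genes are the members, the 2 genes most correlated with each, the nearest gene on either side and any overlapping gene, and the list gene with the largest difference between the sides. List genes beyond that (teq, CG11529, Hayan, grass, CG13318, CtsL1, CtsB, CtsF, CtsK1, CtsK2, Swim, CG31313, Dso1, AttB, AttC, AttD, DptA, DptB, Dro, CecA1, CecA2, CecC) were named after their values were seen. Python 3.11.15 and matplotlib 3.10.9 drew the plots.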

Additional observations from a re-analysis of the deposited data

How the results depend on the processing

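The number of genes called as labelled was 0 under each alternative except one: without both libraries numbered 3 it was 527 (396 higher, 131 lower). It stayed at 0 with other pseudocounts, filters, scalings, no trend, the threshold of 0.01, the replicate block and each library left out (range 0 to 0), and without both libraries numbered 1 or both numbered 2. With the replicate block 68 genes had an unadjusted p under 0.05, against 112 without it. Deviations from the labelled group means correlated between same-numbered libraries at -0.354, -0.404 and -0.460. These values cannot decide on pairing. Where the libraries numbered 3 sit with the other group, deviations of same-numbered libraries take opposite signs. The numbers were not taken to pair the libraries because the labels do not state it. Under the 9 alternatives that keep all 6 libraries, 0 of 89 fold changes of members changed sign. Those that changed the filter, trend, replicate block or threshold leave a fold change as it is by design. Only those of pseudocount and scaling could have moved it. CG5246 fell under the filter at a mean FPKM of 5. Leaving out 1 library, the log2 fold change of CG13965 ranged from -0.19 to 0.48, against 0.06 with all 6, and changed sign without RNAi-Ctrl 1, RNAi-Ctrl 2, RNAi-GLAD 1 or RNAi-GLAD 2. That of CG8299 ranged from 1.20 to 3.79, and the other members also kept their sign. Without both libraries numbered 1 the sign turned for CG4757 (-0.31), cer (-0.031), Mec2 (-0.17), CG2444 (-0.36) and CG13965 (-0.37). Without both libraries numbered 2 it turned for CG4757 (-0.41), Srg3 (-0.052), CG2444 (-0.16), CG13965 (-0.31) and CG8157 (0.018). Each of these fits left RNAi-Ctrl 3 and RNAi-GLAD 3 as 1 of 2 libraries per group. Depth limits the low values of CG8299, CG5246 and CG15368, which rest on 14 fragments or fewer, or 22 or fewer at the annotated lengths.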
